A study of Mus musculus with 4 samples.

Results

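Pitx1 peaks at the Tbx4 and Tbx2 locus of mouse chromosome 11 are described here, as mapped by chromatin immunoprecipitation and sequencing (ChIP-seq) in wild-type ICR embryonic hindlimb buds at mid-gestation (E11.5, the embryonic day). The members are all peaks with a midpoint between 85100000 and 86000000 (mm9 coordinates, counted from 1), a 900 kb interval that holds Bcas3, Tbx2, Tbx4 and Brip1. There were 25 such peaks of 14753 in Pitx1 ChIP replicate 1 and 36 of 25027 in replicate 2. Merging peaks that overlapped between the replicates by at least 1 bp gave 18 replicated regions, of 10274 in the whole genome. The interval was set around genes and not by peak values, but it was chosen with earlier results of these data known.

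The series holds 4 libraries, namely 2 of Pitx1 ChIP and 2 of input chromatin. All came from the same strain, tissue, age and genotype, so the design has no second condition. The inputs had no antibody and have no peak list of their own. Each ChIP used 400 μg of chromatin, and material from 3 independent ChIPs went into the libraries. Whether the replicates came from different litters is not stated, and their differences may therefore be technical. Whole buds hold many cell types. A weak peak may thus stand for weak binding in many cells or for binding in few, and these cannot be told apart. The lists hold no expression values, so the tissue label was not checked against marker genes.

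Pitx1 is a homeodomain transcription factor found in the leg bud but absent from the arm bud, and it takes part in giving the leg its identity. Tbx4 encodes a T-box transcription factor that is expressed in the hindlimb bud, supports its outgrowth and is a known target of Pitx1. Tbx2 encodes a T-box repressor expressed at the margins of both limb buds. Bcas3, which precedes Tbx2 in RefSeq gene order, encodes a cytoskeleton-associated protein, and Brip1, which follows Tbx4, encodes a DNA helicase of the Fanconi anaemia repair pathway. The positions of these genes are known here only approximately, with Tbx2 at about 85.65 Mb and Tbx4 at about 85.70 Mb. Distances below are measured from those points and can be off by several kb. RefSeq gives Tbx4 on the plus strand, so lower coordinates lie on its upstream side.

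The sequences under the Pitx1 peaks were not analysed here, because no genome of the mm9 build was used. The reference sequence just upstream of 1 annotated Tbx4 start is shown instead, since Tbx4 is the gene the interval is built around. It comes from RefSeq in another build, GRCm38.p6, at chr11:85896515-85896764 on the plus strand, and was not placed relative to the mm9 peaks. It is written 5′ to 3′ and all in lower case, because neither motif searched was found in it.
Tbx4 upstream sequence: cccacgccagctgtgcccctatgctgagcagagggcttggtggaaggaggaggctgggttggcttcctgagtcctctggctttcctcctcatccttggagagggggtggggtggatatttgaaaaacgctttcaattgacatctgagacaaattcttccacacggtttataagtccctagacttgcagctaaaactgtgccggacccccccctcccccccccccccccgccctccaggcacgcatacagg
The motifs were TAATCC, the sequence that Pitx and other bicoid-class homeodomains prefer, and its shorter form TAATC, each read on both strands (as GGATTA and GATTA on the other). Any match to TAATCC is also a match to TAATC. Of 32851 reference promoters cut to the same 250 bases, 6.25% held TAATCC and 19.8% held TAATC. The lack of a match says only that these letters are not in this window.

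Pitx1 peaks were dense over the Tbx4-Tbx2 interval in both libraries. Replicated regions stood at 20 per Mb in the interval, against 4.11 per Mb over the rest of the autosomes, a ratio of 4.87 (95% exact interval 2.89 to 7.70, counting error only). In replicate 1 alone the density was 27.8 peaks per Mb in the interval and 5.89 per Mb over the rest of the autosomes (ratio 4.71, interval 3.05 to 6.96). In replicate 2 alone it was 40.0 peaks per Mb in the interval and 10 per Mb over the rest of the autosomes (ratio 4.00, interval 2.80 to 5.54). The excess was thus present in each library on its own. Against the rest of chromosome 11, which held 4.58 replicated regions per Mb, the ratio was 4.37 (2.57 to 6.97). Peaks that lie close together are not independent events, so these intervals are too narrow.

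Other autosomal stretches of the same length seldom held as many. The rest of the autosomes was divided into 2729 windows of 900 kb, which held a median of 3 replicated regions and up to 31. At least 18 replicated regions were found in 19 of these windows (0.696%), and 16 of them held more than 18. By replicate 1 peaks, 0.55% of windows held at least 25, and by replicate 2 peaks, 0.623% held at least 36. The share depended on how regions and windows were defined, by alternatives chosen after the data were seen. It was 2.35% when replication required midpoints within 250 bp, 1.87% for the best-scoring 50% of each list, 1.47% with regions closer than 1 kb merged and 1.14% with windows shifted along by 450 kb. The windows include 521 with no replicated region, and without these the share was 0.861%.

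**Figure D1:**
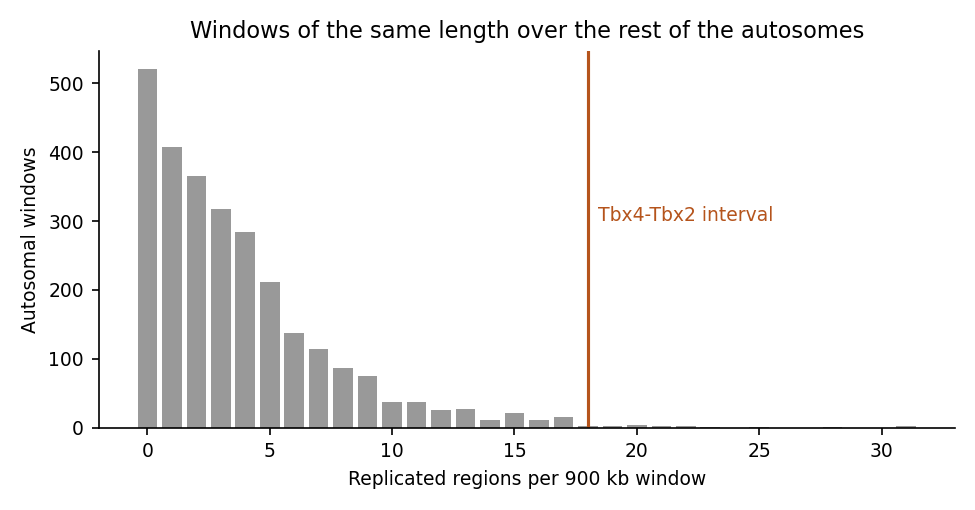
Number of autosomal windows of 900 kb (y axis) by the number of replicated Pitx1 regions in each (x axis), outside the Tbx4-Tbx2 interval. The vertical line marks the 18 regions of the interval, which 19 of 2729 windows reached or passed.

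The surroundings of the locus held fewer regions than the interval, but only the left side was below the median of 3 per window of that length. The 900 kb to the right of the interval held 7 replicated regions, with 10 peaks in replicate 1 and 14 in replicate 2. The 900 kb to the left held 2 replicated regions, with 3 peaks in replicate 1 and 7 in replicate 2. The nearest replicated region outside the interval was 618 kb from the outermost one inside on the left, and 358 kb on the right. At the left edge, the last replicate 1 peak before the interval scored 86.35 and lay 496 kb outside it, and the first inside scored 53.91. In replicate 2 the last peak before the left edge scored 101.49, 370 kb outside, and the first inside scored 457.64. At the right edge, replicate 1 peaks scored 74.38 inside and 153.15 outside, and replicate 2 peaks scored 118.31 inside and 103.49 outside. No peak lay within 10 kb of either edge, so small shifts of the edges would change no count.

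Along the interval, the number of peaks varied between stretches, and some stretches held none. Whether this spacing differs from that of randomly placed peaks was not tested. The 100 kb to the right of the Tbx4 position held 6 replicated regions, with 6 peaks in replicate 1 and 11 in replicate 2. The 50 kb between the Tbx2 and Tbx4 positions held 1 replicated region, and the 550 kb to the left of Tbx2, where Bcas3 lies, held 9. By length, that is 60.0, 20 and 16.4 replicated regions per Mb. These stretches are unequal, and the first is the densest part of its side. The whole 300 kb to the right of Tbx4 held 8 replicated regions, or 26.7 per Mb. The last 150 kb on the right held 0 replicated regions and 1 peak of each list. Between peaks, the longest stretches with none of either list ran for 89.3 kb, from 85842211 to 85931543, and for 85.8 kb, from 85359408 to 85445187. The left end of the interval was also empty, up to the replicate 1 peak at 85195530.

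**Figure D2:**
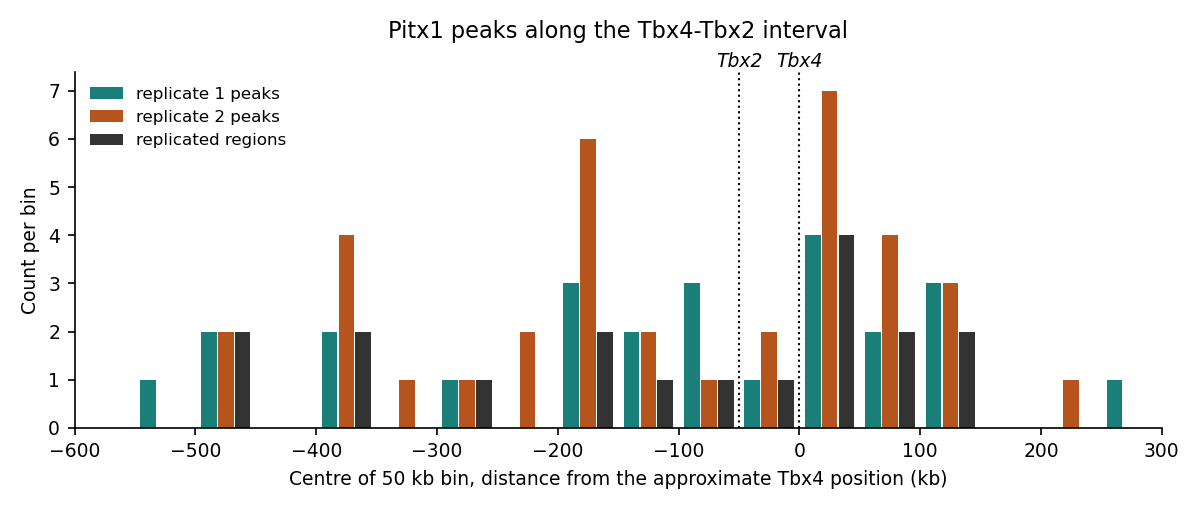
Counts of replicate 1 peaks, replicate 2 peaks and replicated regions (y axis) in bins of 50 kb, by distance of the bin's centre from the approximate Tbx4 position (x axis, kb). The bin just right of Tbx4 is the fullest in each series, with 4 replicate 1 peaks, 7 replicate 2 peaks and 4 replicated regions; the dotted lines mark the approximate gene positions.

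The replicated region nearest to Tbx4 was also the strongest of the interval by the sum of its ranks in both lists. It spanned 2414 bp from 85688571 to 85690984, 10.2 kb to the left of the Tbx4 position and 39.8 kb to the right of that of Tbx2. Its peak scored 266.16 in replicate 1 (rank 1004 of 14753) and 719.53 in replicate 2 (rank 392 of 25027). The score is a value the peak caller assigned, compared here only within a list, as a percentile, which is the percent of the list's autosomal peaks outside the interval that scored lower. By that measure the region stood at the 93.1 percentile in replicate 1 and at 98.4 in replicate 2. Its place by summed rank was 521 among all 10274 replicated regions. The midpoints of its peaks were 482 bp apart, so under a rule that asks for midpoints within 250 bp it would not count as replicated.

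To the right of the Tbx4 position, 4 replicated regions formed a cluster within 17.6 kb, from 85723231 to 85740859. A cluster here is a run of at least 3 replicated regions with midpoints under 10 kb apart. It was the only one in the interval, and it put 4 of 18 regions (22.2%) in clusters, against a background of 5.96% over the rest of the autosomes. That share rests on a single run, and it is tied to the density of the interval, so it is not a separate result. The strongest of the cluster ran from 85737664 to 85739410, 38.5 kb from Tbx4, and scored 314.41 in replicate 1 (rank 733, the best of the interval in that list) and 366.05 in replicate 2 (rank 1597). The weakest ran from 85739484 to 85740859 and scored 50.79 in replicate 1 and at most 61.26 in replicate 2. That was close to the lowest scores of the lists, 50 and 50.01.

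The other members of the cluster ranked between these in both lists. The region from 85730140 to 85732569, at 2430 bp the widest of the interval, scored 129.58 in replicate 1 (75.5 percentile) and 203.11 in replicate 2 (83.6 percentile). It was also split in replicate 2, where a second peak scored 50.27. The region from 85723231 to 85724285, 23.8 kb from Tbx4, scored 59.22 in replicate 1 (20.3 percentile) and 193.81 in replicate 2 (82.5 percentile). Only 73 bp separated the strongest region of the cluster from its neighbour at 85739484. Whether these are separate sites or 1 stretch split by the caller cannot be told apart from the lists. Counted as 1, the cluster would still have 3 regions. Whether the cluster lies within Tbx4 or beyond its end was not determined here.

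Replicated regions near the Tbx2 position were fewer than near that of Tbx4, while replicate 1 peaks were about as many. The nearest replicated region ran from 85633419 to 85634238, 16.2 kb to the left of the Tbx2 position. It scored 92.08 in replicate 1 (58.4 percentile) and 235.76 in replicate 2 (87.0 percentile). Within 50 kb of each gene position there were 5 replicated regions for Tbx4 and 2 for Tbx2, and 1 region, the strong one at 85688571, was counted for both genes. Within 25 kb the counts were 2 for Tbx4 and 1 for Tbx2, and within 100 kb they were 8 and 7. Replicate 1 alone had 2, 5 and 10 peaks within 25, 50 and 100 kb of Tbx4, and 2, 4 and 10 within the same distances of Tbx2. Replicate 2 alone had 3, 9 and 14 for Tbx4, and 2, 3 and 12 for Tbx2. The wider spans overlap, since the gene positions are 50 kb apart. The difference between the genes was not tested.

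Peaks called in 1 library only were also present near both gene positions, and the 4 within 50 kb scored below the median of their list. A replicate 2 peak from 85655552 to 85655832, 5.7 kb to the right of the Tbx2 position, scored 67.91 (rank 17181). A replicate 2 peak from 85707329 to 85707672, 7.5 kb to the right of the Tbx4 position, scored 50.81 (rank 24550). In replicate 1, the peaks from 85629905 to 85630447 and from 85613552 to 85614420 lay 19.8 and 36.0 kb to the left of Tbx2 and scored 64.46 and 76.18. No replicated region had its midpoint within 10 kb of either position, but the positions are too coarse to say whether a peak overlaps a promoter.

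**Figure D3:**
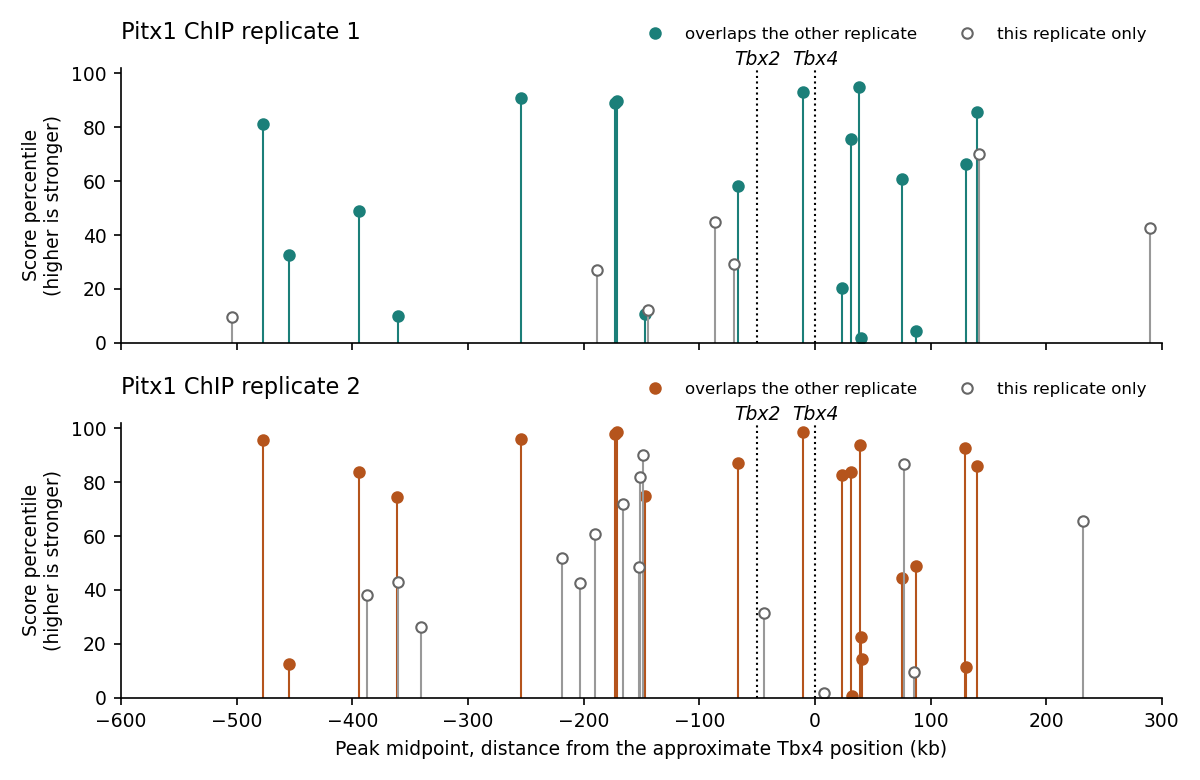
Score percentile of each Pitx1 peak within its list (y axis) by distance of its midpoint from the approximate Tbx4 position (x axis, kb), with replicate 1 above and replicate 2 below. Filled points are the 18 replicate 1 and 21 replicate 2 peaks that overlap the other list, and open points the 7 and 15 that do not. The tallest filled points in both panels include the region 10.2 kb left of Tbx4.

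On the Bcas3 side, a strong pair of regions lay far from both T-box genes. The first ran from 85526219 to 85527533 and scored 209.53 in replicate 1 and 630.62 in replicate 2 (rank 529). The other ran from 85527886 to 85529062 and scored 215.95 in replicate 1 and 742.85 in replicate 2 (rank 369, the best of the interval in that list). They were 352 bp apart and lay 123.1 and 121.5 kb to the left of the Tbx2 position. By summed rank they were at 790 and 690 among all replicated regions, next after the one at 85688571. As with the cluster near Tbx4, the lists do not tell whether these are separate sites.

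More peaks surrounded this pair, mostly in replicate 2. Between 85509856 and 85554019 replicate 2 had 8 peaks and replicate 1 had 4, of which 3 pairs overlapped. The third pair was the region from 85552653 to 85554019, which scored 54.43 in replicate 1 (10.6 percentile) and 150.39 in replicate 2 (74.9 percentile). The strongest unshared peak of the interval, in replicate 2 from 85550614 to 85552064, scored 282.64 (rank 2464, 90.1 percentile) and ended 588 bp before that region. The stretch thus held a run of replicate 2 peaks of which a part was called in replicate 1.

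Farther left, 5 replicated regions were spread over the Bcas3 side between 85222337 and 85446859. The region from 85445188 to 85446859, 204.0 kb from Tbx2, scored 229.21 in replicate 1 and 465.18 in replicate 2, and was in the highest score decile of both lists. The outermost, from 85222337 to 85223342, scored 153.0 in replicate 1 and 457.64 in replicate 2. These were strong in both libraries, and their midpoints differed by 1.5 and 19.5 bp. The region from 85305657 to 85306363 scored 80.48 in replicate 1 and 204.49 in replicate 2. The region from 85338579 to 85339478 scored 54.12 in replicate 1 and 148.73 in replicate 2. The region from 85244373 to 85245516 was weak in both, with 66.37 in replicate 1 and 55.56 in replicate 2 (rank 21867).

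On the Brip1 side, 4 replicated regions lay beyond the cluster. The region from 85774396 to 85775683 scored 95.94 in replicate 1 and 80.28 in replicate 2, and that from 85787017 to 85787834 scored 51.99 and 85.58. A replicate 2 peak between them, from 85776905 to 85777524, scored 230.49 (rank 3353) and had no partner in replicate 1. The last pair lay 130.3 and 140.0 kb to the right of the Tbx4 position. The region from 85829149 to 85831424 scored 105.21 in replicate 1 and 334.74 in replicate 2, and the region from 85839373 to 85840716 scored 178.55 and 221.89. A replicate 1 peak 599 bp beyond it, from 85841316 to 85842210, was the strongest unshared peak of that list in the interval, with a score of 114.53 (rank 4387). Beyond it the right end of the interval held no replicated region.

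Peaks of the interval spanned weak and strong scores. In replicate 1 they stood near the rest of that list, and in replicate 2 more of them were among its strongest. In replicate 1 the median percentile of the 25 peaks was 48.9 (95% exact interval 27.0 to 75.5), while that of the rest of the autosomes was 50.1. In replicate 2 the median of the 36 peaks was 68.6 (42.8 to 83.8), and for the rest of the autosomes it was 50, which that range includes. In the highest score decile were 3 of 25 replicate 1 peaks (12.0%, Wilson interval 4.17 to 30.0%), where the background is 10%. In replicate 2 there were 8 of 36 (22.2%, Wilson interval 11.7 to 38.1%), where the background is 9.98%. The share in replicate 1 was thus near its background, while that of replicate 2 was above it. The background lies outside the Wilson interval of replicate 2. Peaks that lie close together are not independent, however, so that interval is too narrow. Regions with a best peak in the highest decile of both lists numbered 3 of 18, against a background of 10.6%. They were those at 85445188, 85688571 and 85737664.

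The share of peaks found in both replicates was near its background in replicate 1 and above it in replicate 2, within counting error in both. Of the replicate 1 peaks 18 of 25 overlapped a replicate 2 peak (72.0%, Wilson interval 52.4 to 85.7%), against a background of 69.9%. Of the replicate 2 peaks 21 of 36 overlapped a replicate 1 peak (58.3%, Wilson interval 42.2 to 72.9%), against a background of 42.6%, which lies just inside that interval. Wide peaks reach an overlap of 1 bp more easily. Median widths in the interval and the rest were 1055 and 797 bp in replicate 1, and 627 and 456 bp in replicate 2. Whether width bears on the shares was not tested. With a reciprocal overlap of 50% they were 64.0% and 44.4%, without a matching background. In replicate 1 the median score was 100.6 for shared and 64.46 for unshared peaks of the interval. In replicate 2 it was 203.11 for shared and 85.44 for unshared ones. Shared peaks also scored higher over the rest of the autosomes, with medians of 97.69 and 64.1 in replicate 1 and of 144.9 and 71.64 in replicate 2. A replicated region lay under 5 kb away for 7 of the 15 unshared replicate 2 peaks and for 3 of the 7 unshared replicate 1 peaks. The matching shares over the rest of the autosomes were not computed, so these counts have no background. Read depth is unknown, so a peak called in 1 library is not shown to be absent from the other.

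The order of strength was similar in both libraries across the 18 replicated regions. Spearman's rho between the ranks of their best peaks was 0.839, against 0.558 over the 10127 replicated regions of the rest of the autosomes. Both are descriptions across regions that share their libraries, without a test. The percentile was higher in replicate 2 than in replicate 1 in 15 of 18 regions, where the background is 65.6%. The exceptions were the regions at 85244373, 85737664 and 85774396. The regions at 85338579, 85552653 and 85723231 differed the most, by 64.7, 64.4 and 62.3 percentile points, each being weak in replicate 1.

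**Figure D4:**
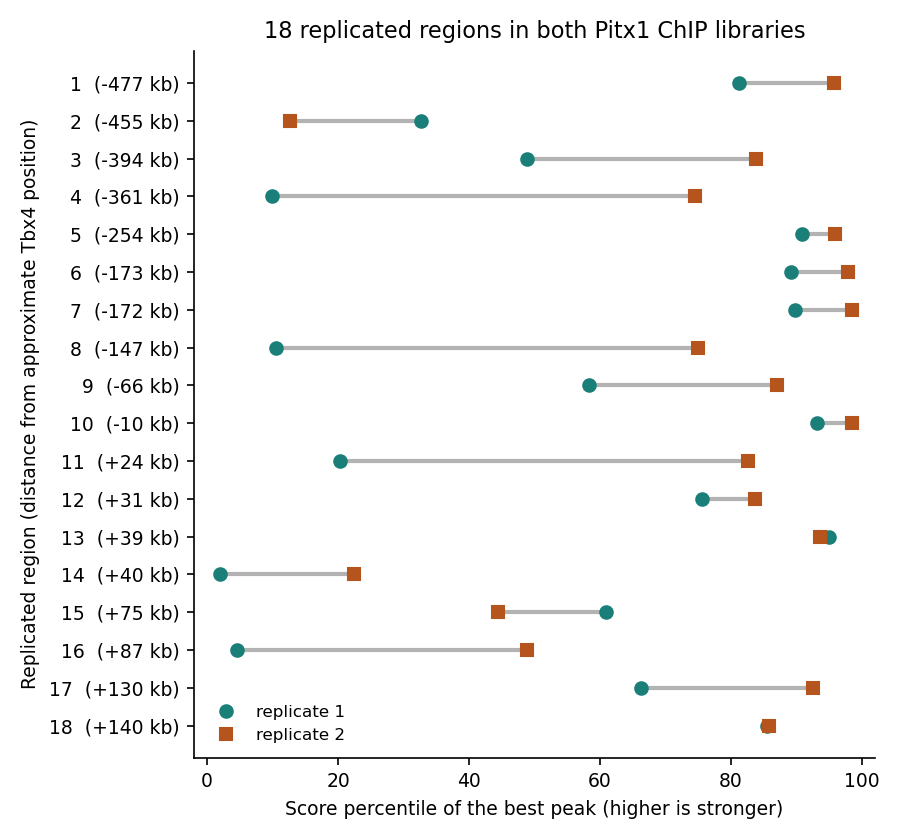
Score percentile (x axis) of the best replicate 1 peak (circle) and the best replicate 2 peak (square) in each of the 18 replicated regions, in order of position (y axis, with the distance from the approximate Tbx4 position). In 15 regions the square lies to the right of the circle. The regions at -254, -10 and +39 kb are above the 90 percentile in both libraries.

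Regions of the interval were also wide and closely spaced. Their median length was 1302 bp, with a range of 707 to 2430 bp, against a median of 862 bp over the rest of the autosomes. At least 2000 bp wide were 3 of 18 regions, against a background of 1.39%, and these were the ones at 85688571, 85730140 and 85829149. More than 1 replicate 2 peak fell in 3 of 18 regions, against a background of 3.61%. Those were at 85730140, 85739484 and 85829149, all to the right of Tbx4. The median distance from a region's midpoint to the nearest other was 12.4 kb, against 38.6 kb, and 8 of 18 lay within 10 kb of another, where the background is 22.9%. These measures are tied to density and to each other, and a few regions make up each count. No test of them was made.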

How the data were processed

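Fixation was for 30 minutes in 1% formaldehyde, trypsin treatment took 5 minutes and chromatin was sheared to 200 to 600 bp, per the labels' protocols. The submitters' processing notes name CASAVA 1.7 and 1.8.2, Bowtie 0.12.8, MACS 1.4.2, bedtools 2.16.2 and the mm9 build, without roles. How peaks were called and how the inputs entered the calls was not given in the sources used. The deposited peak score in each list is the caller's own value, which the authors gave for 1 library at a time, and peaks are numbered anew in each list. A further deposited list of other values holds 1 bp positions without scores. No file gives read numbers, so depth is unknown.

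From these lists, overlaps, densities, percentiles and distances were computed with Python 3.11.15, numpy 2.4.6, pandas 2.3.3 and scipy 1.17.1, and figures with matplotlib 3.10.9. Autosome length was taken up to the last peak. Density ratios have 95% exact conditional binomial intervals, shares have 95% Wilson intervals and medians have 95% order-statistic intervals, all for counting error only. Peaks of 1 locus are not replicates, so no p-value was computed. The steps for overlaps of at least 1 bp, replicated regions, density ratios and windows were tested on simulated data with planted overlaps. Percentiles, 95% intervals and the other definitions of a replicated peak were not part of that test. Every replicated region is named. Of peaks in 1 list only, the 2 best per list and those within 50 kb of the Tbx4 or Tbx2 position are named. The members and lists were chosen with earlier results of these data known. Alternatives were other score thresholds, definitions of a replicated peak, backgrounds, distances and windows, and each replicate left out in turn.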

Additional observations from a re-analysis of the deposited data

How the results depend on the processing

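No paired analysis was possible because replicate numbers are shared only with the inputs, and these lack peak lists. Of 62 alternative values, 41 stayed within 1.5 times the count or within the reported interval and 21 moved, while none put the density of the Tbx4-Tbx2 interval at or below that of the rest of the autosomes (ratios of 4.00 to 7.86; 4.00 to 4.71 with each replicate left out in turn, and 7.86 in the best 25% of each list). In the best 50% and 25% of each list by score, which hold fewer peaks, the interval had 10 and 8 replicated regions, Tbx4 had 3 and 3 within 50 kb, and Tbx2 had 1 in the best 25%. All 8 replicate 1 peaks of the best 25% were shared (100%), but the matching share over the rest of the autosomes was not computed. With each replicate left out in turn, the remaining list gave 25 to 36 peaks, 5 to 9 near Tbx4 and 3 to 4 near Tbx2. Midpoints within 250 bp left 38.9% of replicate 2 peaks shared, 2 regions near Tbx4 and 1 near Tbx2. The share over the rest of the autosomes under that rule was not computed, and the 42.6% for overlap is not its background. By midpoints, the regions at 85688571, 85730140, 85737664 and 85829149 no longer counted as replicated. Distances of 25 and 100 kb gave 2 and 8 regions for Tbx4, and 1 and 7 for Tbx2. The share of windows with at least as many regions was 1.87% in the best 50%, 2.35% by midpoints, 1.47% with regions closer than 1 kb merged and 1.14% with shifted windows; these window alternatives were chosen after the data were seen. Merging could not be applied to shares or percentiles, changes of background not to counts or shares, the window median not to percentiles, and leaving out a replicate not to sharing. Unknown read depth limits every statement on unshared peaks.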

Other observations

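The deposited list of 1 bp positions followed the shared peaks at the Tbx4-Tbx2 locus. It had 21 positions in the interval, of 10625 in the copy used here. Each of the 21 shared replicate 2 peaks held a position and none of the 15 unshared ones did. Of the positions, 20 also lay inside a replicate 1 peak. Over the rest of the autosomes 10508 replicate 2 peaks were shared, and how many of them held a position was not computed. The match is thus not shown to be particular to this locus. All 18 replicated regions had a position, and 3 regions, those in which replicate 2 had more than 1 peak, had more than 1. These were the regions at 85730140, 85739484 and 85829149. No source used here says how the list was made.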
